A study of Mus musculus with 16 samples.

Results

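Mast cells and neutrophils store ready-made proteins in cytoplasmic granules, and the genes for these proteins serve as markers of both cell types in bulk tissue RNA. The 10 genes described here were chosen by symbol for these roles: 5 of mast cells (Cpa3, Cma1, Mcpt4, Tpsb2 and Fcer1a) and 5 of neutrophils (Mpo, Elane, Camp, Ltf and Csf3r). They are 10 of the 12393 genes that the Affymetrix M430A_2 mouse array measured through a probe set with a single gene symbol, and 11 probe sets carry them, since Tpsb2 has 2.

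RNA was profiled on 16 arrays in 3 groups. Melanocytes isolated from mice with no disease gave 4 arrays. Cutaneous melanomas of the iMet model (genotype Tyr-rtTA;Tet-Met;Ink4a/Arf-/-) and of the iHRAS* model, which the sample titles call iRas (Tyr-rtTA;Tet-HRASV12G;Ink4a/Arf-/-), gave 6 arrays each. In both models the tyrosinase promoter, which is active in pigment cells, drives the transactivator rtTA, which switches on Met or mutant HRAS, and both models lack Ink4a/Arf. The genotype of the melanocytes, the inducer treatment and the age of the mice are not stated in the labels. The tumour labels speak of isolated cells while the design text speaks of RNA from melanomas, so how much of the surrounding skin was carried along is not settled by them. Nothing in the labels ties each array to an animal of its own, so the p-values cover the spread between these samples and no more.

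As background, mast cells mature in tissues such as the dermis under stem cell factor (Kitl), the ligand of the receptor Kit. Connective-tissue mast cells of mouse skin are packed with carboxypeptidase A3, the chymases Mcpt4 and Cma1 and tryptases, bound to the proteoglycan serglycin. Neutrophils make their granule proteins in a fixed order in the bone marrow. Myeloperoxidase and elastase (Mpo, Elane) are transcribed in promyelocytes, cathelicidin and lactoferrin (Camp, Ltf) in myelocytes, and the receptor for granulocyte colony-stimulating factor (Csf3r) throughout the lineage and in mature cells. A circulating neutrophil therefore holds much of these proteins while carrying little of the mRNA for the early ones.

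Promoter sequence is shown for 4 mast cell genes, whose signals moved together across tumours as described further on, and for 2 neutrophil genes for contrast. The sequences are the 250 bases before the annotated transcription start, from RefSeq (GRCm38.p6), for which 9 of the 10 genes matched an entry, all except Tpsb2. They are written 5′ to 3′ on the strand of the gene. Capitals mark GATAA on either strand, the core letters bound by GATA factors, in the mast cell genes, and GAGGAAG on either strand, the core letters bound by PU.1, in the neutrophil genes.
Cpa3 (chr3:20242182-20242431, minus strand): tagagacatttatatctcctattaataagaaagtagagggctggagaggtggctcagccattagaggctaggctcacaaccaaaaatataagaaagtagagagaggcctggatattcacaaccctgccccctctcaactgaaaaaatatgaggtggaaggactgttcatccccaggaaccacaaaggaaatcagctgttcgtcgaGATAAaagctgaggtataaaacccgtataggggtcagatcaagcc
Cma1 (chr14:55944676-55944925, minus strand): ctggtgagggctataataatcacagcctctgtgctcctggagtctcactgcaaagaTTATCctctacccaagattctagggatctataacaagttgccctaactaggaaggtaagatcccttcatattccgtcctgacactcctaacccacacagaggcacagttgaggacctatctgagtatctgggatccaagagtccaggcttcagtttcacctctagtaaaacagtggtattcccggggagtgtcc
Mcpt4 (chr14:56062311-56062560, minus strand): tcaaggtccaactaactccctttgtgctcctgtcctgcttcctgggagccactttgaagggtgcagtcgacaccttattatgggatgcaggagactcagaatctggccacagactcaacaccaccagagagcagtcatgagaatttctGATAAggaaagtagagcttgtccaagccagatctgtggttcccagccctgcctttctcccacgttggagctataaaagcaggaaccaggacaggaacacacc
Fcer1a (chr1:173227230-173227479, minus strand): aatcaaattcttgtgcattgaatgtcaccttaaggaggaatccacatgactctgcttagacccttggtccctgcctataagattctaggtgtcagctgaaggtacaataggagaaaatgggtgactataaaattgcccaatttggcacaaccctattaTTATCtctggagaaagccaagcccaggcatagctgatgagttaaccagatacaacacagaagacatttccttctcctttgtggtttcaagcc
Mpo (chr11:87793534-87793783, plus strand): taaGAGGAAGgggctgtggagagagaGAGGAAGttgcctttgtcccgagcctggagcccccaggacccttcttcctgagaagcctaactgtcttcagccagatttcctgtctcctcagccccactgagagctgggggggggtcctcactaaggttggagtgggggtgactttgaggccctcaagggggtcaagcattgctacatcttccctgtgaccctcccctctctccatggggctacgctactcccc
Elane (chr10:79886062-79886311, plus strand): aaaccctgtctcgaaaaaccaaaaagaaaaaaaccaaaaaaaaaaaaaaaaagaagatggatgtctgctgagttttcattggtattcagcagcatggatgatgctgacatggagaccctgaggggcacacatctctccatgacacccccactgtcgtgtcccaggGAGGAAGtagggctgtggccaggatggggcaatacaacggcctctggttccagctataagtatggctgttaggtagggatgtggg
GATAA was present in this window in 4 of the 4 mast cell genes with an entry and in 1 of the 5 neutrophil genes, Ltf. The share of all 32851 RefSeq promoters with GATAA in the same window was 22.6%. The match began 45 bases before the start of Cpa3, 92 before that of Fcer1a, 102 before that of Mcpt4 and 194 before that of Cma1. GAGGAAG was present in 0 of 4 mast cell genes and in 3 of 5 neutrophil genes (Mpo, Elane and Csf3r), against 10.6% of all promoters. TTNNGNAA, letters of the site bound by C/EBP factors, was present in 1 of 4 and 1 of 5 (Fcer1a and Ltf), against 36.8% of all promoters. All 3 letter strings were searched on both strands, no match of one overlapped a match of another in these promoters, and they were chosen after these sequences had been looked at. A match describes the letters and is not evidence of binding.

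Signals are log2 values after quantile normalization of the deposited values. A signal at or below the 40th percentile of its array, log2 6.21, is here called near background. Across 27 genes chosen as silent in skin, the median of 432 values was 4.10, the 95th percentile was 6.19, and 4.86% of values lay above 6.21. Of the 27, 22 were near background on every array. The others include Pomc, with a melanocyte mean of 6.39, so the list is not free of signal. By the 40th percentile, 107 of the 176 member values lay near background. The mast cell proteases were above it on most tumour arrays: Cpa3 on 11 of 16 arrays, Cma1 on 12, Mcpt4 on 10 and Tpsb2 on 11. Csf3r was above it on 12 arrays, Fcer1a on 5 and Ltf on 4. Mpo, Elane and Camp were each above it on 1 array, the same iMet tumour. Of the 2 Tpsb2 probe sets, the dimmer was above it on 1 array, at 6.29 in iHRAS* tumour 4, and the Tpsb2 values that follow come from the brighter.

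**Figure D1:**
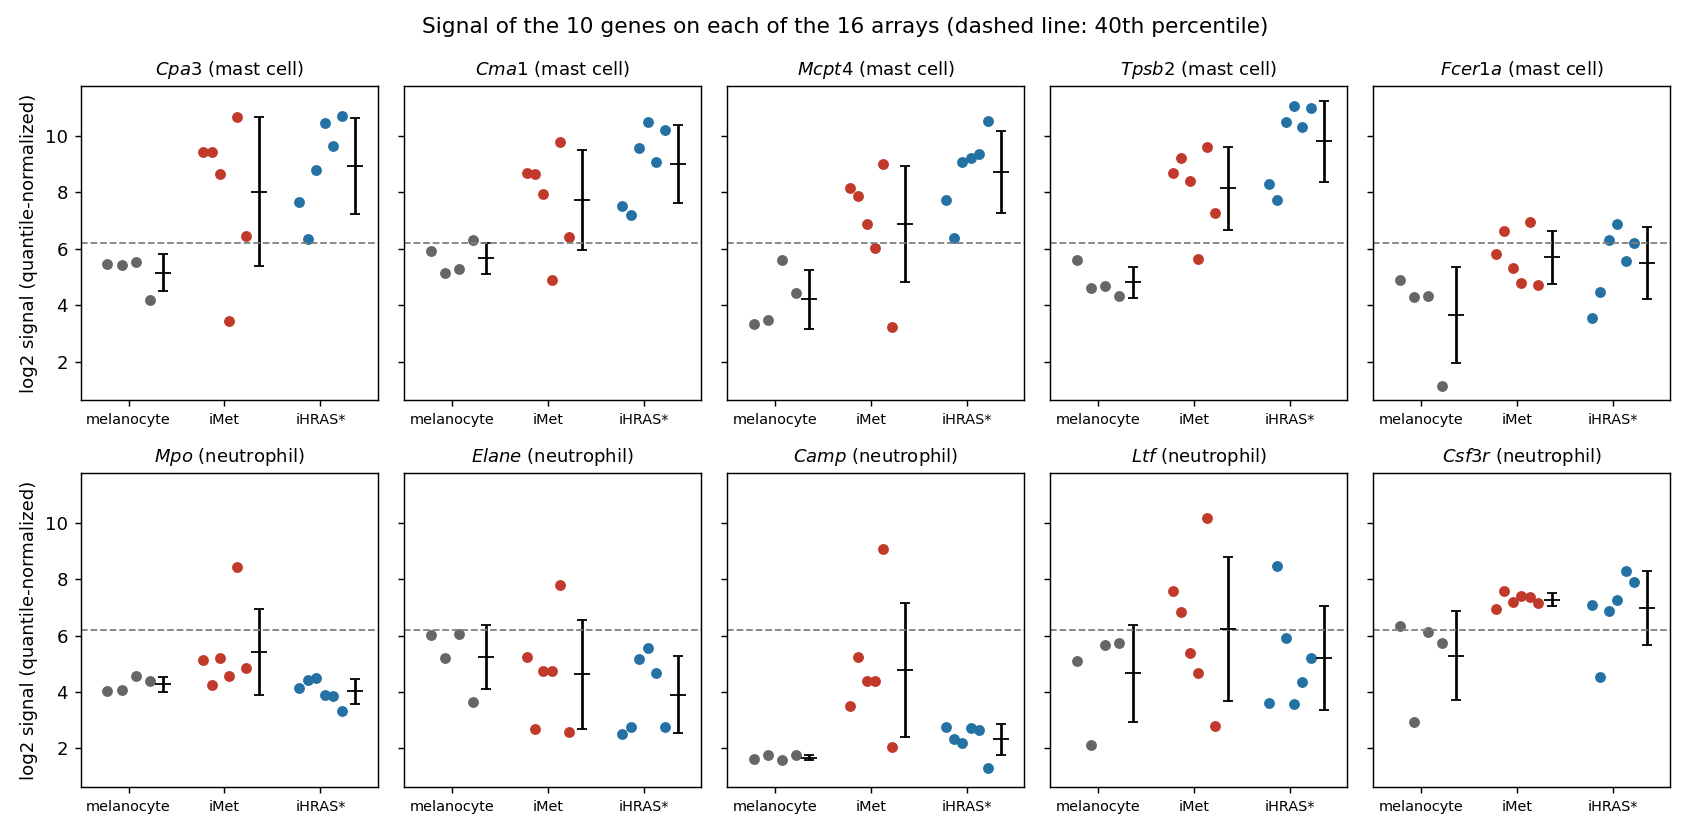
Log2 signal (vertical axis, quantile-normalized) of the 10 genes on each of the 16 arrays, 1 panel per gene, with the mean ± SD of each group (melanocyte n = 4, iMet n = 6, iHRAS* n = 6) and a dashed line at the 40th percentile, log2 6.21. Cpa3, Cma1, Mcpt4 and Tpsb2 lie above the line in all 6 iHRAS* tumours, whereas Mpo, Elane and Camp lie above it in 1 iMet tumour.

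Mast cell protease signals were above background in most tumours of both models and near background in melanocytes, apart from Cma1 at 6.31 on 1 melanocyte array. In iHRAS* tumours, 4 of the 5 mast cell genes passed the limma test against melanocytes, all higher, where 39.3% of the 8651 genes tested were called, 18.1% higher and 21.3% lower. In iMet tumours, 3 of the 5 passed, all higher, where 35.1% were called, 16.4% higher and 18.7% lower. All 5 passed the filter on low signal through the tumour arrays in which they were high, so these counts describe the genes and carry no further weight. The comparisons share the 4 melanocyte arrays. In bulk RNA, fewer cells of a type and less RNA per cell cannot be told apart.

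Tpsb2 encodes a tryptase, a trypsin-like protease stored in mast cell granules. In the 4 melanocyte arrays its log2 signal was 5.61, 4.61, 4.69 and 4.33. In iMet tumours it ran from 5.65 through a median of 8.55 to 9.61, and in iHRAS* tumours from 7.71 through 10.40 to 11.06. All 12 tumours thus lay above all 4 melanocyte arrays, although the lowest iMet tumour was itself near background. Among all genes tested, the ranges did not overlap for 25.3% in iHRAS* and 27.7% in iMet tumours against melanocytes. The log2 difference from melanocytes was 5.01 ± 0.78 (SE) in iHRAS* tumours (n = 6 and 4, limma adjusted p = 0.000208) and 3.33 ± 0.78 in iMet tumours (n = 6 and 4, limma adjusted p = 0.00416). With the melanocyte level set to log2 6.21, because every melanocyte array was near background, Tpsb2 was at least 12.2-fold higher in iHRAS* tumours and at least 3.82-fold higher in iMet tumours. When both Tpsb2 probe sets were averaged, the iMet difference was 1.15 and lost its call (limma adjusted p = 0.213, against 0.000875 to 0.213 over 28 alternatives).

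Cma1 and Mcpt4 encode proteases of the chymase family, and Mcpt4 is the main chymase of mouse connective-tissue mast cells. Cma1 read 5.91, 5.14, 5.29 and 6.31 in melanocytes, from 4.90 through a median of 8.30 to 9.78 in iMet tumours, and from 7.19 through 9.34 to 10.48 in iHRAS* tumours. The iHRAS* tumours did not overlap melanocytes, whereas 1 iMet tumour, number 4, lay below all 4 melanocyte arrays. Cma1 was higher in iHRAS* tumours by a log2 of 3.34 ± 0.85 (limma adjusted p = 0.00625). The iMet difference of 2.07 ± 0.85 did not pass (limma adjusted p = 0.0709), and without iMet tumour 4 it was 2.64 and passed (limma adjusted p = 0.0134, against 0.0134 to 0.217 over 28 alternatives).

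Mcpt4 read 3.33, 3.49, 5.60 and 4.43 in melanocytes, from 3.24 through 7.37 to 9.01 in iMet tumours, and from 6.38 through 9.16 to 10.53 in iHRAS* tumours. Again all 6 iHRAS* tumours stood above the melanocyte range, and iMet tumour 6 lay below it. The difference from melanocytes was 4.51 ± 0.98 in iHRAS* tumours (limma adjusted p = 0.00237), at least 5.70-fold. In iMet tumours it was 2.65 ± 0.98 (limma adjusted p = 0.0470), at least 1.57-fold. That call was lost without melanocyte array 1, 2 or 4, without iMet tumour 1, 2, 3, 4 or 5, and without iHRAS* tumour 1, 3, 4 or 5, with differences of 2.22 to 2.82, and over 28 alternatives its adjusted p ran from 0.00482 to 0.210.

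Cpa3 encodes carboxypeptidase A3, the exopeptidase that shares granules with the chymases and tryptases. Its log2 signal was 5.47, 5.43, 5.54 and 4.19 in melanocytes, ran from 3.45 through 9.04 to 10.68 in iMet tumours and from 6.36 through 9.22 to 10.69 in iHRAS* tumours. Within the iMet group the highest and lowest tumour lay 7.23 log2 units apart, 1 of them at the top of all iMet arrays and 1 below all melanocyte arrays. The difference from melanocytes was 3.78 ± 1.18 in iHRAS* tumours (limma adjusted p = 0.0192), at least 6.61-fold. It was 3.45 and no longer passed without melanocyte array 4 (limma adjusted p = 0.0565, against 0.00375 to 0.133 over 28 alternatives). The iMet difference of 2.86 ± 1.18 did not pass (limma adjusted p = 0.0710), and without iMet tumour 4 it was 3.78 and passed (limma adjusted p = 0.00562, against 0.00562 to 0.272 over 28 alternatives).

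Fcer1a encodes the IgE-binding subunit of the high-affinity IgE receptor of mast cells and basophils. It read 4.89, 4.29, 4.34 and 1.14 in melanocytes, from 4.71 through 5.56 to 6.96 in iMet tumours, and from 3.55 through 5.89 to 6.87 in iHRAS* tumours, so most values were near background and the groups overlapped. The iMet difference of 2.03 ± 0.76 passed narrowly (limma adjusted p = 0.0499), and the iHRAS* difference of 1.83 ± 0.76 did not (limma adjusted p = 0.0681). The iMet call was lost without melanocyte array 2, 3 or 4, without iMet tumour 1, 2, 3 or 5, and without iHRAS* tumour 2, 3, 5 or 6, with differences of 1.19 to 2.26. The iHRAS* difference was 2.24 without melanocyte array 1 and 2.22 without iHRAS* tumour 1, and passed in both cases (limma adjusted p = 0.0488 and 0.0282, against 0.0251 to 0.447 over 28 alternatives).

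No mast cell gene passed the test between the 2 tumour models. Of the 5, 4 could be tested among the 12 tumours, and limma called 0, where 20.9% of the 8058 genes tested were called, 11.2% higher and 9.7% lower, and the ranges of the models did not overlap for 10.7%. Of these, 1, Tpsb2, had an unadjusted p under 0.05. The iMet minus iHRAS* log2 difference was −1.67 ± 0.75 for Tpsb2 (limma adjusted p = 0.132), −1.86 ± 0.92 for Mcpt4 (0.171), −1.28 ± 0.83 for Cma1 (0.294) and −0.92 ± 1.15 for Cpa3 (0.606). The means of these 4 genes were lower in iMet tumours, with group ranges that overlapped for each. Fcer1a did not reach the filter, with group means of 5.70 in iMet and 5.50 in iHRAS* tumours.

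**Figure D2:**
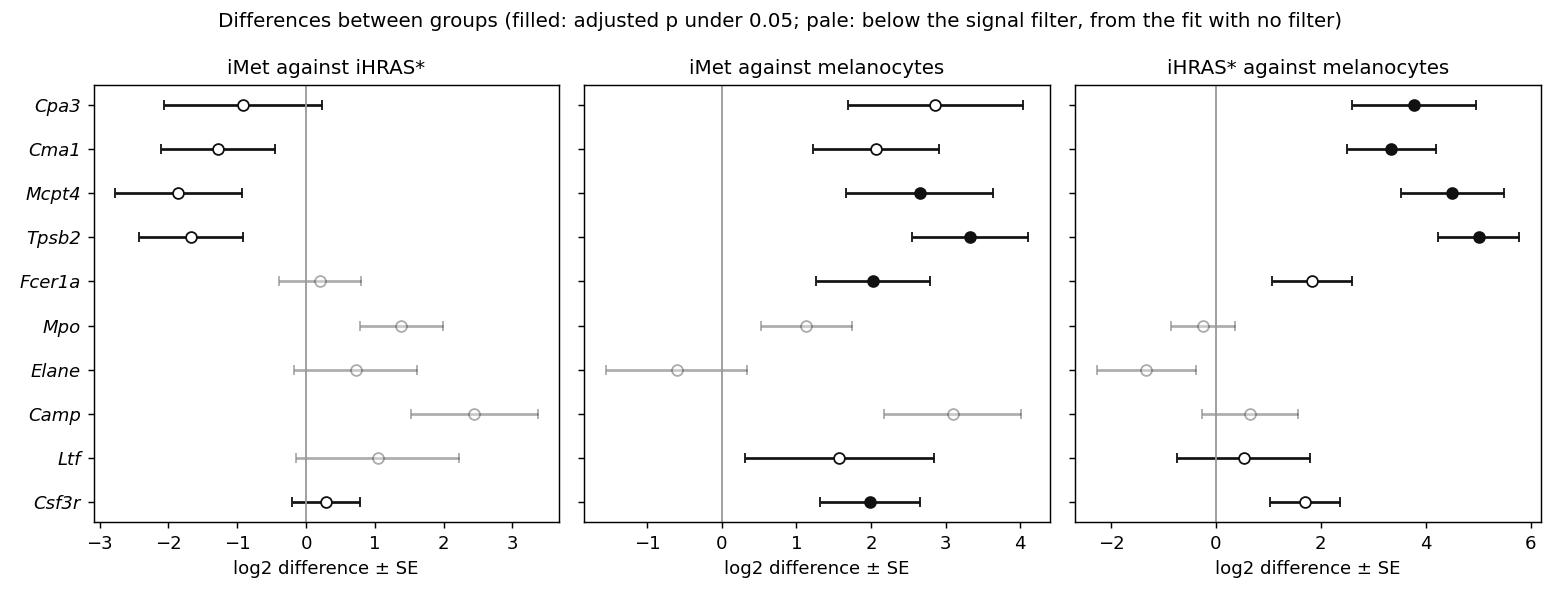
Log2 difference ± SE of each of the 10 genes (vertical axis) in 3 comparisons, iMet minus iHRAS*, iMet minus melanocytes and iHRAS* minus melanocytes. Filled points passed an adjusted p of 0.05, and pale points are genes below the signal filter, shown from a fit without it. Against melanocytes 4 mast cell genes passed in iHRAS* tumours and 3 in iMet tumours, and between the models 0 passed.

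The mast cell genes varied together from tumour to tumour. Over the 12 tumours, taken as deviations from the mean of each model, the 10 pairs of mast cell genes had Pearson r from 0.75 to 0.98 with a median of 0.84, and Spearman rho from 0.77 to 0.97. Without the 2 tumours farthest from the median, r was 0.78 to 0.97. These are descriptions: the genes share each array's RNA and hybridisation, and some of the probe sets belong to close relatives. The 25 pairs of 1 mast cell and 1 neutrophil gene had r of 0.23 to 0.57 over the same arrays, and of 0.13 to 0.78 without the 2 farthest tumours. Within the 6 iMet tumours alone the mixed pairs ran from −0.08 to 0.93 and the mast cell pairs from 0.68 to 0.99, and within the 6 iHRAS* tumours from −0.77 to 0.86 and from 0.73 to 0.98, so single mixed pairs reached the range of the mast cell pairs.

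In the iHRAS* group, tumours 1 and 2 were the 2 lowest for each of the 5 mast cell genes. In the iMet group, tumour 5 was the highest for all 5, tumour 4 was the lowest for Cpa3, Cma1 and Tpsb2, and tumour 6 was the lowest for Mcpt4 and Fcer1a. General leukocyte markers followed the mast cell genes in some tumours and not in others. Their mean log2 signal over 8 genes was highest of the iMet group in tumour 5, at 10.06, and lowest in tumour 6, at 9.16, but it was 9.84 in tumour 4. In the iHRAS* group it was 10.36 in iHRAS* tumour 1 and 8.14 in tumour 2, against 7.95 in tumour 3. In iMet tumour 4, 0 of 12 keratinocyte markers were above background, and their mean was 4.91. It was lower still, 4.63, in tumour 1, where the mean of the 5 mast cell genes was 8.16, and highest, 9.02, in tumour 6, where that mean was 5.62. The part of skin content in the mast cell values was not tested.

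**Figure D3:**
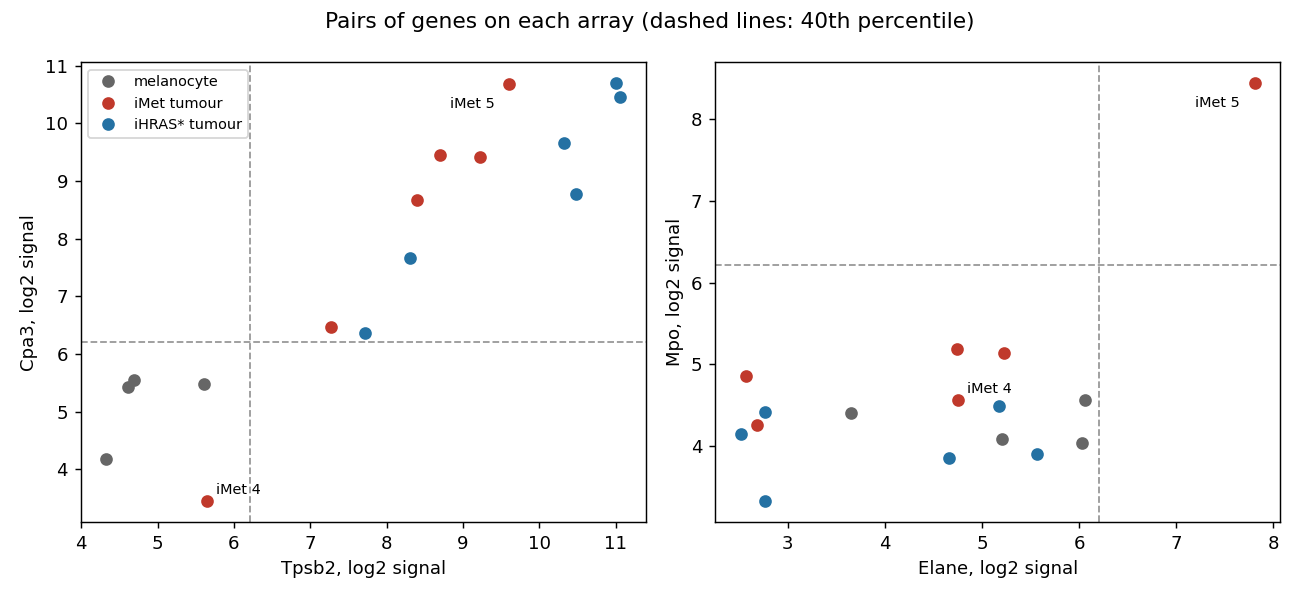
Log2 signal of Tpsb2 against Cpa3 (left) and of Elane against Mpo (right), 1 point per array, coloured by group. Tpsb2 and Cpa3 are high or low together over the 12 tumours (r = 0.96 of deviations from the group means), whereas for Elane and Mpo 1 iMet tumour stands apart from the rest.

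For Tpsb2, the mast cell gene with the highest mean over the tumours, the 5 genes with the most similar deviations among 8057 ranked were Cma1 (r = 0.98), Tpsab1 (0.98), Cpa3 (0.96), Cavin1 (0.89) and Vav3 (0.86), over 12 arrays. Cma1 and Cpa3 are themselves among the 10 genes, and Tpsab1 is the neighbouring tryptase gene. Tpsb2 and Tpsab1 are closely similar in sequence, and how far their probe sets bind each other's transcripts was not tested.

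From a list of 22 other mast cell genes, of which 16 have a probe set, some were also higher in tumours than in melanocytes. Of 11 tested, 8 were called higher in iHRAS* tumours and 6 in iMet tumours, and 0 were lower, where 18.1% and 16.4% of all genes tested were called higher. Genes near background in melanocytes passed the filter through the tumours in which they were high, so these counts are descriptions. The median log2 difference over the tested ones was 3.14 and 1.64, against −0.09 and −0.08 over all genes tested. Between the models 0 of 7 tested were called by limma, and 0 had an unadjusted p under 0.05. With a filter at the 60th percentile, 5 were called higher in iHRAS* tumours. Some of the list were not higher in tumours and are named because of their values. Rab27b averaged 6.94 in melanocytes, 5.81 in iMet and 6.53 in iHRAS* tumours, and Tpsg1 averaged 5.57, 5.47 and 5.44. Ms4a2 was above background on melanocyte arrays 2 and 4, at 6.26 and 6.80, and in no tumour. Mcpt1, Cyp11a1 and Siglecf were near background on all 16 arrays.

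Srgn, the serglycin core protein that holds proteases in the granule, had a log2 signal of 1.14 to 3.95 in melanocytes, 10.12 to 11.65 in iMet tumours and 11.08 to 11.63 in iHRAS* tumours. It was higher by 8.52 ± 0.43 in iMet and by 8.85 ± 0.43 in iHRAS* tumours (limma adjusted p = 1.89e-09 and 2.16e-09). Its melanocyte level was near background, so the measured change is at least 27.5-fold in iMet and at least 34.5-fold in iHRAS* tumours. Fcer1g, the signalling chain shared by Fc receptors, was higher by 5.29 ± 0.44 and 4.70 ± 0.44 (limma adjusted p = 5.58e-07 and 2.2e-06), at least 16.2-fold and 10.7-fold. Macrophages and neutrophils also express Srgn and Fcer1g.

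Kit, the stem cell factor receptor of mast cells and of the pigment lineage, read 1.45 to 4.69 in melanocytes, 6.06 to 7.81 in iMet tumours and 5.19 to 7.92 in iHRAS* tumours. Its difference from melanocytes was 4.41 ± 0.63 in iMet and 4.45 ± 0.63 in iHRAS* tumours (limma adjusted p = 0.000109 and 9.72e-05). As its melanocyte values were all near background, Kit was at least 1.60-fold higher in iMet and at least 1.65-fold higher in iHRAS* tumours. Tpsab1 was higher by 4.66 ± 0.98 in iMet and by 5.97 ± 0.98 in iHRAS* tumours (limma adjusted p = 0.00205 and 0.00033), at least 7.21-fold and 17.8-fold. Hpgds, the haematopoietic prostaglandin D synthase, was higher by 1.64 ± 0.31 in iMet and by 1.08 ± 0.31 in iHRAS* tumours (limma adjusted p = 0.00105 and 0.0136). It was above background on 0 of 4 melanocyte, 3 of 6 iMet and 1 of 6 iHRAS* arrays, so these differences lie mostly among poorly measured values and no fold is given.

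Mcpt2, a mast cell protease characteristic of mucosal mast cells, did not share this pattern and is named because its values stood out. Its log2 signal was 3.86 to 6.00 in melanocytes, 3.55 to 5.58 in iMet tumours and 6.11 to 9.74 in iHRAS* tumours, so the 2 models did not overlap and all iMet tumours were near background. It was higher in iHRAS* tumours than in melanocytes by 3.39 ± 0.67 (limma adjusted p = 0.00126), at least 4.24-fold, and lower than melanocytes by 0.35 ± 0.67 in iMet tumours, which did not pass (limma adjusted p = 0.706). Between the models it missed the filter, and in the fit without a filter the iMet minus iHRAS* difference was −3.75 ± 0.62 (limma adjusted p = 0.00356, 1 alternative). Hdc, the histamine-forming enzyme, was above background in 4 of 6 iHRAS* tumours, 1 of 6 iMet tumours and 0 of 4 melanocyte arrays. Its lowest iHRAS* values, 2.89 and 2.47, were in tumours 1 and 2, the same tumours that were lowest for the proteases.

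**Figure D4:**
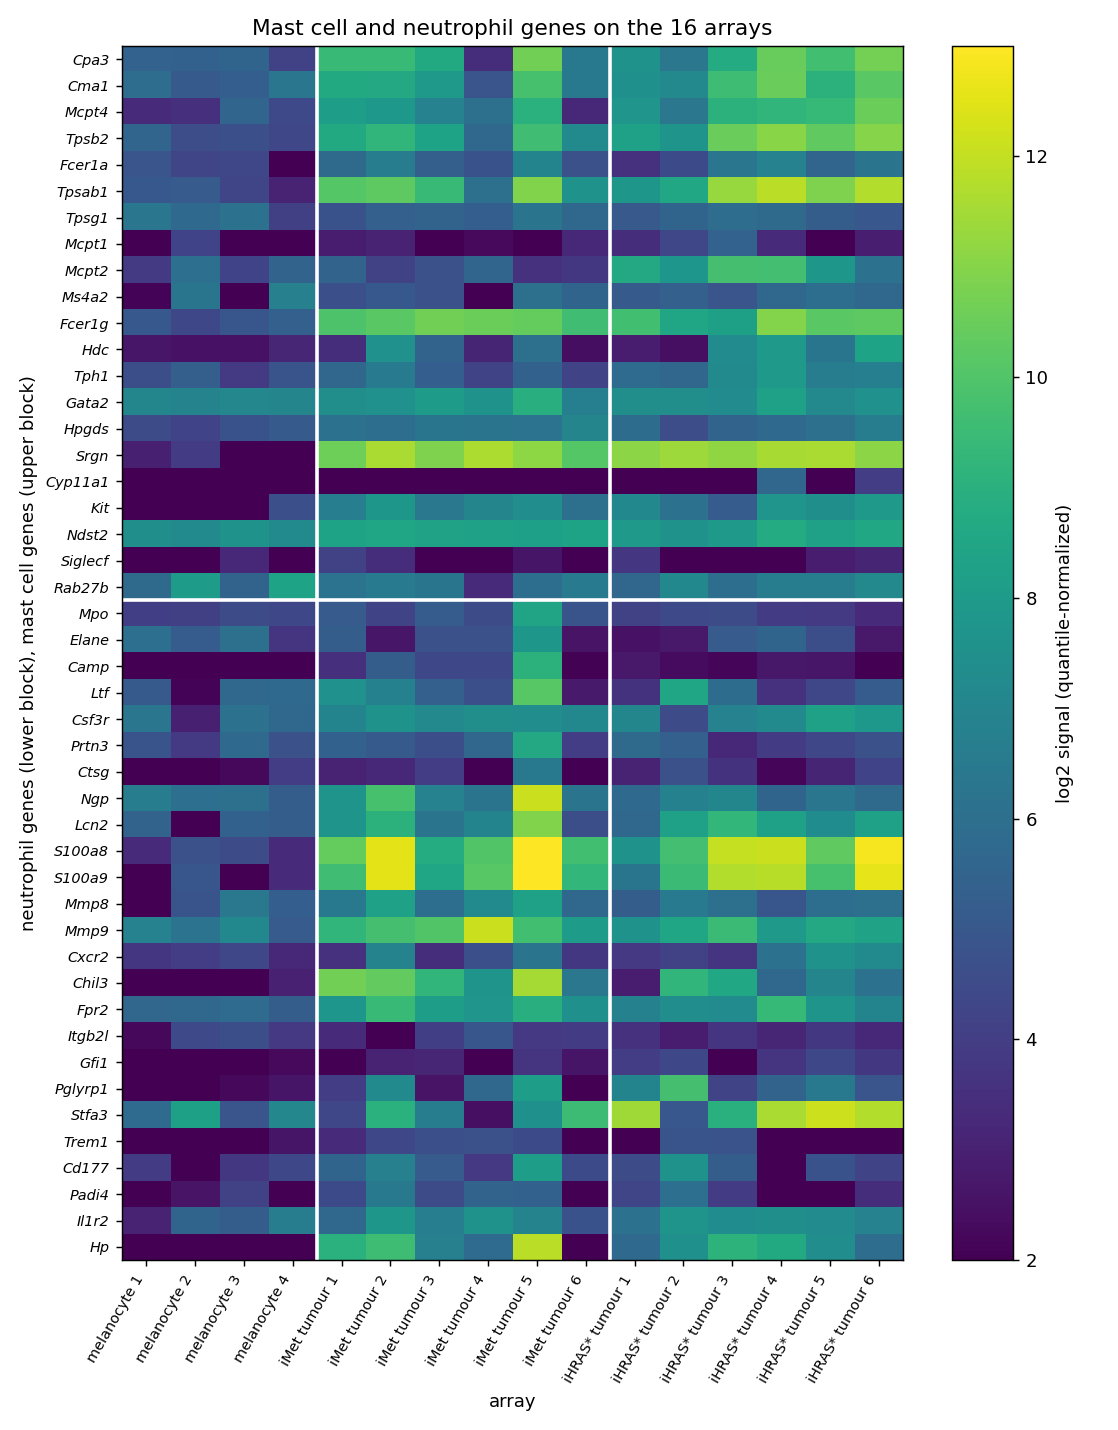
Log2 signal (colour, 2 to 13) of the mast cell genes (upper block, 21 rows) and neutrophil genes (lower block, 25 rows) with a probe set, on the 16 arrays (columns, by group). Srgn and Fcer1g are bright in all tumours and dark in melanocytes. Cpa3, Cma1, Mcpt4, Tpsb2 and Tpsab1 are brighter in most tumours than in melanocytes, whereas Mcpt1 and Tpsg1 are not, and Mcpt2 is bright in iHRAS* tumours only. iMet tumour 5 is bright for many of the neutrophil genes.

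Ligands and attractants of these cells were read from a list of 13. Kitl, the stem cell factor that keeps mast cells alive, had a log2 signal of 6.89 to 7.93 in melanocytes, 9.25 to 10.17 in iMet tumours and 8.79 to 9.50 in iHRAS* tumours. It was higher than in melanocytes by 2.36 ± 0.22 and 1.86 ± 0.22 (limma adjusted p = 1.8e-06 and 1.81e-05). Il33, an alarmin that activates mast cells through the receptor ST2, read 4.38 to 5.22 in melanocytes, 6.45 to 8.27 in iMet tumours and 10.99 to 12.50 in iHRAS* tumours, 3 ranges that do not overlap. The iMet minus iHRAS* difference of Il33 was −4.02 ± 0.36 (limma adjusted p = 4.6e-05).

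Ccl2, an attractant of monocytes and mast cell precursors, went the other way, higher in iMet than in iHRAS* tumours by 1.67 ± 0.39 (limma adjusted p = 0.0108). Ccl11, the eosinophil attractant eotaxin, passed the test against melanocytes in both models (limma adjusted p = 0.00102 in iMet and 0.000436 in iHRAS* tumours). Its mean was near background in all 3 groups, 1.77 in melanocytes, 5.69 in iMet and 6.13 in iHRAS* tumours, and it was above background on 0 of 4, 1 of 6 and 4 of 6 arrays, so no size is given. In all, 4 of 8 tested ligands were higher than melanocytes in each model and 0 were lower, where 16.4% (iMet) and 18.1% (iHRAS*) of all genes tested were called higher. Between the models 1 of 6 was higher and 1 lower in iMet tumours, where 11.2% of all genes were called higher and 9.7% lower. That count of higher ligands was 2 with the values as deposited, with arrays centred on the median, with probe sets averaged or each on its own, and without iMet tumour 3 or 4. Whether Kitl or Il33 is linked to the mast cell signals was not tested.

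The early neutrophil granule genes gave no signal above background outside 1 tumour. Mpo, the peroxidase that makes hypochlorous acid, read 4.03, 4.08, 4.56 and 4.40 in melanocytes, from 4.26 through 4.998 to 8.44 in iMet tumours and from 3.32 through 4.03 to 4.49 in iHRAS* tumours. Elane, neutrophil elastase, read 6.03, 5.20, 6.06 and 3.65 in melanocytes, from 2.57 through 4.74 to 7.81 in iMet tumours and from 2.52 through 3.71 to 5.56 in iHRAS* tumours. The highest value of both was in iMet tumour 5, and every other array was near background. Neither was tested, because neither reached the filter in any comparison.

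Camp, which encodes the antimicrobial peptide precursor cathelicidin, read 1.62, 1.76, 1.58 and 1.76 in melanocytes, from 2.06 through 4.38 to 9.08 in iMet tumours and from 1.32 through 2.49 to 2.77 in iHRAS* tumours. The iMet values did not overlap the melanocyte values, but 5 of the 6 were near background, where the order of values is poorly measured. In the fit without a filter the iMet minus melanocyte difference was 3.10 ± 0.92 (limma adjusted p = 0.0239, 1 alternative), and no fold is given because Camp misses the filter. Between the models the difference in that fit was 2.44 ± 0.92 and did not pass (limma adjusted p = 0.107).

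Ltf, the iron-binding protein lactoferrin, read 5.12, 2.11, 5.67 and 5.74 in melanocytes, from 2.81 through 6.10 to 10.16 in iMet tumours and from 3.58 through 4.79 to 8.47 in iHRAS* tumours. It was above background in iMet tumours 1, 2 and 5 and in iHRAS* tumour 2, and near background elsewhere. The differences from melanocytes, 1.57 ± 1.27 in iMet and 0.53 ± 1.27 in iHRAS* tumours, did not pass (limma adjusted p = 0.354 and 0.763). Without iHRAS* tumour 2 the latter was −0.12, below the filter, and without melanocyte array 2 it was −0.32 (limma adjusted p = 0.878, against 0.591 to 0.941 over 28 alternatives). Epithelial cells also make lactoferrin, and the source of its signal was not tested.

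Csf3r, the receptor for granulocyte colony-stimulating factor, was the 1 neutrophil gene of the 5 with signal above background in most tumours. It read 6.33, 2.95, 6.14 and 5.73 in melanocytes, from 6.95 through 7.28 to 7.59 in iMet tumours and from 4.53 through 7.17 to 8.30 in iHRAS* tumours. The 6 iMet tumours lay within 0.64 log2 units of each other and above every melanocyte array, while iHRAS* tumour 2 lay among the melanocyte values. Of the 2 neutrophil genes tested against melanocytes, limma called 1, Csf3r, in iMet tumours, where 35.1% of all genes tested were called. It called 0 in iHRAS* tumours, where 39.3% of all genes tested were called and 1 of the 2 had an unadjusted p under 0.05. Csf3r was higher in iMet tumours by 1.99 ± 0.67 (limma adjusted p = 0.0323) and its iHRAS* difference of 1.70 ± 0.67 did not pass (limma adjusted p = 0.0570).

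Single arrays decided both results for Csf3r. The iMet difference was 1.21 without melanocyte array 2 and did not pass (limma adjusted p = 0.132, against 0.00938 to 0.290 over 28 alternatives), and it lost its call at 1.92 to 1.97 without iMet tumour 2, 4 or 5. The iHRAS* difference was 2.19 without iHRAS* tumour 2 and passed (limma adjusted p = 0.00625, against 0.00625 to 0.445 over 28 alternatives), as it did at 2.04 and 1.98 without melanocyte array 1 or 3. Between the models Csf3r differed by 0.29 ± 0.49 (limma adjusted p = 0.714), and it was the only neutrophil gene of the 5 that could be tested there. Without iHRAS* tumour 2 that difference was −0.20. Among 8057 genes ranked over the 12 tumours, those with the most similar deviations were Ncf1 (r = 0.93, rho = 0.83), Pdxk (0.92, 0.90), Trem2 (0.90, 0.62), Ext2 (0.89, 0.68) and Ciao1 (0.88, 0.48).

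The neutrophil genes did not vary as 1 block. Their 10 pairs had r from −0.44 to 0.80 with a median of 0.51 over the 12 tumours, and a median of 0.03 without the 2 farthest tumours. Mpo and Elane had r = 0.70 over all 12 and 0.40 without iMet tumour 5, and Mpo and Camp had 0.80 and 0.23. Over the 6 pairs of Mpo, Elane, Camp and Ltf, r was 0.40 to 0.80 with that tumour and 0.06 to 0.40 without it. Mpo, Elane and Camp were above background on 1 of the 16 arrays each and Ltf on 4. These correlations therefore lie mostly among poorly measured values, and low ones do not show that the genes vary apart.

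iMet tumour 5 was the highest of all 12 tumours for 4 of the 5 neutrophil genes (Mpo, Elane, Camp and Ltf), for 10 of 20 other neutrophil genes with a probe set, for 1 of the 5 mast cell genes and for 3 of 16 other mast cell genes. Several of the neutrophil genes are named here because of their values. Prtn3, proteinase 3, read 8.65 there against 3.28 to 5.80 in the other 11 tumours, and Ctsg, cathepsin G, read 6.44 against 1.23 to 4.72. Ngp, the neutrophilic granule protein, read 12.12 against 5.55 to 9.79, and Lcn2, the iron-siderophore binder lipocalin 2, read 10.91 against 4.64 to 9.28.

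Markers of another cell type moved with these values in the same tumour. Of 7 lymphocyte markers, 3 were highest in iMet tumour 5, all of B cells: Ms4a1 read 10.24, Cd79a 9.07 and Cd79b 8.88, and the other 5 iMet tumours were near background for each. Macrophage markers were highest there for 1 of 14 genes and keratinocyte markers for 0 of 12. The part of other tissue in this sample was not tested.

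Some of the other neutrophil genes were higher in tumours of both models than in melanocytes. Of 13 tested from a list of 28, 8 were higher in iMet and 9 in iHRAS* tumours and 0 were lower, where 16.4% and 18.1% of all genes tested were called higher. The same filter applies to these counts. The log2 differences had medians of 2.84 and 3.59 against −0.08 and −0.09 over all genes. Without melanocyte arrays 2 and 4, 5 were higher in iHRAS* tumours. Between the models limma called 0 of 10, where 20.9% of all genes were called, and 3 had an unadjusted p under 0.05. Without iMet tumour 6, 3 were called higher in iMet tumours. Some of the list were not higher in tumours of 1 or both models and are named because of their values. Ngp averaged 6.00 in melanocytes, 8.16 in iMet and 6.22 in iHRAS* tumours, and Stfa3 averaged 6.53, 6.59 and 10.15. Itgb2l, Gfi1 and Trem1 were near background on all 16 arrays.

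S100a8 and S100a9 encode the subunits of calprotectin, a major protein of the neutrophil cytosol. S100a8 read 3.33 to 4.74 in melanocytes, 8.79 to 13.31 in iMet and 7.62 to 12.87 in iHRAS* tumours, a difference of 6.81 ± 1.00 and 6.79 ± 1.00 (limma adjusted p = 0.000132 and 0.000127). S100a9 was higher by 7.85 ± 1.22 in iMet and 7.56 ± 1.22 in iHRAS* tumours (limma adjusted p = 0.000223 and 0.000293). Both were near background on all 4 melanocyte arrays, so the measured change is at least 23.9-fold (iMet) and 23.7-fold (iHRAS*) for S100a8, and at least 20.8-fold and 16.9-fold for S100a9. Monocytes and stressed keratinocytes also express both genes. Chil3, a chitinase-like protein of neutrophils and macrophages, was higher by 7.96 ± 1.15 in iMet and 5.24 ± 1.15 in iHRAS* tumours (limma adjusted p = 0.000124 and 0.00255). With melanocytes near background throughout, that is at least 8.53-fold in iMet tumours and at least 1.30-fold in iHRAS* tumours, where Chil3 was above background on 3 of 6 arrays. Fpr2, a formyl peptide receptor, read 5.24 to 5.87 in melanocytes, 7.54 to 9.40 in iMet and 6.84 to 9.36 in iHRAS* tumours.

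Markers of other cells differed in the same comparisons. Against melanocytes, 14 of 14 macrophage markers and 8 of 8 general leukocyte markers were higher in each model. Over all genes tested, 16.4% were called higher and 18.7% lower in iMet tumours, and 18.1% and 21.3% in iHRAS* tumours. Between the models 2 of 14 macrophage markers were higher in iMet tumours and 0 of 8 leukocyte markers were called. There 11.2% of all genes tested were called higher in iMet tumours and 9.7% lower. Markers near background in melanocytes passed the filter through the tumours, so these counts are descriptions. The mean macrophage signal over 14 genes ran from 4.12 to 4.50 in melanocytes, 10.16 to 10.81 in iMet and 8.34 to 10.41 in iHRAS* tumours. Of 11 keratinocyte markers tested, 3 were higher and 6 lower than melanocytes in iMet tumours, and 5 were higher and 0 lower in iHRAS* tumours. Between the models 4 of the 11 were lower in iMet than in iHRAS* tumours and 0 were higher. Of 12 endothelial markers, 10 were higher than melanocytes in each model, and 8 were higher in iMet than in iHRAS* tumours. Of 10 fibroblast markers, 5 were higher than melanocytes in iMet and 7 in iHRAS* tumours, and between the models 1 was higher and 2 lower in iMet tumours. Of 6 eosinophil and basophil markers, 0 passed the filter in any comparison. The part of these cells in the differences of the 10 genes was not tested.

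The melanocyte label was checked against 9 lineage genes with a probe set. Of the 9, 4 were above background on each melanocyte array. Sox10 read 9.04 to 10.41 on the 4 melanocyte arrays and Pmel 6.43 to 7.05. Mitf, named for its values, averaged 5.67 and was near background on all 4, against means of 7.56 in iMet and 7.34 in iHRAS* tumours. Tyr and Dct, the pigment enzymes, were likewise near background on all 4 melanocyte arrays. Fibroblast markers averaged 8.07 to 10.91 there, with 8 to 10 of 10 above background, and keratinocyte markers 6.37 to 8.46, with 7 or 8 of 12 above background. Epcam, Cdh1 and Krt1 of the keratinocyte list were near background on all 4 arrays. Others of that list, named for their values, were bright. Melanocyte means were 12.73 for Krt14, 12.57 for Krt5, 11.21 for Perp, 10.43 for Dsp, 9.22 for Sfn and 9.12 for Trp63. The part of other cells in these arrays was not tested. The array spike-in controls, read as deposited, were lower on iHRAS* arrays for bioB and bioC. A bioB probe set read 7.61 ± 0.34 (SD, n = 6) there against 8.55 ± 0.14 (n = 6) in iMet and 8.44 ± 0.21 (n = 4) in melanocyte arrays. A bioC probe set read 8.69 ± 0.33 against 9.52 ± 0.20 and 9.46 ± 0.16. A bioDn probe set was not lower, at 9.78 ± 0.25 against 9.51 ± 0.22 and 9.47 ± 0.20. The part of that shift in the near-background values and in the brighter ones was not tested.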

How the data were processed

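The authors deposited 1 table of log2 signal for 16 Affymetrix M430A_2 mouse arrays, with 22690 probe sets. Its values ran from −4.07 to 14.53, and their summarisation and normalization are not described in the labels. Array medians spread by 0.719, so 22626 probe sets, without 64 controls, were quantile-normalized, which makes every difference relative to the rest of the array. Names came from the platform annotation: 20380 had 1 symbol, 691 several and 1555 none here, and 20351 matched the RefSeq gene table by gene ID. A gene is its probe set with the highest mean.

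Genes above the 40th percentile on 6 arrays (between tumours, 8058 genes) or 4 arrays (against melanocytes, 8651 genes) were tested with limma 3.58.1 in R 4.3.3 (lmFit and eBayes, two-sided, Benjamini-Hochberg over all genes tested, called under 0.05). Differences between models were fitted on the 12 tumours alone, the others on all 16 arrays. The number of arrays limits the precision. On simulated data the fit recovered 73.3% of genes changed by log2 1 between the models, and 64.8% and 65.8% for iMet and iHRAS* tumours against melanocytes. Each gene was first given the same mean in every group, so the planted changes carried no sampling error. These shares are therefore not the power of the fit on real samples. The changed genes were also drawn at random from all genes tested, so the shares do not measure recovery for the 10 genes. Between the models the SE of the tested mast cell genes ran from 0.75 (Tpsb2) to 1.15 (Cpa3).

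The 10 genes, the other gene lists and the tests were chosen with earlier results of these data known. Samples were grouped by their titles. The genes named are the 10 genes, up to 4 called genes per comparison with the smallest p from each other list, and the 5 genes most like Tpsb2 and Csf3r, apart from those said to be named for their values. Alternatives changed the scaling, the filter, the handling of probe sets, the eBayes settings, the replicate block and the arrays included. Counts for the other lists under these settings were added after seeing the data.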

Additional observations from a re-analysis of the deposited data

Results flagged for a closer look

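Over 33 groups of 4 or 6 arrays, 3 values of the 10 genes lay far from the rest of their group, and chance alone gives about 1 in 20 groups. Melanocyte array 4 gave the flagged values of both Cpa3 and Fcer1a, so the 3 values are not from separate arrays.

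Melanocyte array 4 had a Cpa3 signal of 4.19, with the nearest other melanocyte array at 5.43, and a Fcer1a signal of 1.14, with the nearest at 4.29. Both genes were near background on all 4 melanocyte arrays. Without that array the iHRAS* minus melanocyte difference of Cpa3 was 3.45 (limma adjusted p = 0.0565, against 0.00375 to 0.133 over 28 alternatives) and the iMet minus melanocyte difference of Fcer1a was 1.19 (limma adjusted p = 0.192, against 0.0205 to 0.354 over 28 alternatives).

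iMet tumour 5 had a Mpo signal of 8.44, with the nearest other iMet tumour at 5.19. Without it the iMet minus iHRAS* difference of Mpo, which was 1.38, was 0.78.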

How the results depend on the processing

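Cma1, Mcpt4 and Tpsb2 kept their calls in iHRAS* tumours against melanocytes under all 28 alternatives, with limma adjusted p up to 0.0457, 0.0338 and 0.00974.

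In iMet tumours against melanocytes, 1 mast cell gene was called with no filter, with a filter at the 25th percentile and without iHRAS* arrays 5 and 6, and 0 without melanocyte arrays 2 and 4. Leaving out 1 array gave 1 to 4. For the neutrophil genes, 2 were called with no filter, 0 with a filter at the 60th percentile and 0 without melanocyte arrays 2 and 4, and leaving out 1 array gave 0 to 1. In iHRAS* tumours against melanocytes, 1 neutrophil gene was called with the values as deposited, 1 with arrays centred on the median and 1 without melanocyte arrays 1 and 3, and leaving out 1 array gave 0 to 1. The iHRAS* minus melanocyte difference of Ltf ran from −0.32 to 0.89 when 1 array was left out, and was −0.20 without melanocyte arrays 2 and 4, −0.32 without melanocyte array 2 and −0.12 without iHRAS* tumour 2, and the iMet minus iHRAS* difference of Csf3r was −0.20 without iHRAS* tumour 2, within −0.20 to 0.55 when 1 array was left out. The cause was not tested.

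Labels give the groups the same replicate numbers. Taken as deviations from the group means, same-numbered samples had correlations of −0.231 to 0.136. The best match had the same number for iMet tumours 5 and 6 among iHRAS* tumours and for iMet tumour 1 among melanocyte arrays, and a different number in all other cases. The main fits did not pair the samples, and whether same-numbered samples share a batch was not tested. With a replicate block, 1 mast cell gene and 0 neutrophil genes were called in iMet tumours against melanocytes, and Cpa3 lost its call in iHRAS* tumours (3.33, adjusted p = 0.0756).

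Over all genes, iHRAS* tumours against melanocytes gave 5256 calls with every probe set on its own, where more features were tested, and 2177 without melanocyte arrays 2 and 4, against 3404. Scaling moved the balance of calls: between the models 53.7% of called genes were higher in iMet tumours, and 80.1% with the values as deposited, where the median of all genes was 0.23. Against melanocytes 46.6% (iMet) and 46.0% (iHRAS*) were higher, and 33.6% and 34.0% with arrays centred on the median. As deposited, 35.2% were higher in iHRAS* tumours. With background set at the 25th percentile, 70 member values were near background, against 107. Signal near background limits Fcer1a, Mpo, Elane, Camp and Ltf.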
